A study of Mus musculus with 6 samples.

Results

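The Schlafen genes are a family of interferon-responsive genes that lie side by side on mouse chromosome 11. The family as described here is Slfn1, Slfn2, Slfn3, Slfn4, Slfn5, Slfn8 and Slfn9, matched by gene name in the deposited count table, and all 7 were found among its 55291 genes. They were read in 3 dorsal skin samples of wild-type (WT) mice and 3 of Tsk mice, where Tsk is the tight-skin allele of Fbn1, the gene of the microfibril protein fibrillin 1. WT samples carry the strain name C57BL/6 and Tsk samples B6.Cg-Fbn1Tsk/J, all at day 40, and the Tsk genotype is written Fbn1+/-. Fbn1+/- would often mean a null allele, but Tsk is a partial duplication inside the gene, and the samples are taken here to carry Tsk on 1 chromosome. Tsk is a germline allele present in all cells of the animal, and no agent was given to either group according to the labels. The labels number the samples 1 to 3 (WT) and 4 to 6 (Tsk) without saying whether each came from its own animal, and the spread behind every p-value is that between these samples, which may be technical. The members were chosen by family name with their WT and Tsk levels and the fold change between them in these same libraries known, so those values are given as a description, without a p-value.

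Schlafen proteins share an N-terminal core, and several bind or cut transfer RNA and other RNA. Short members (Slfn1, Slfn2) hold little beyond this core, intermediate members (Slfn3, Slfn4) add a linker domain, and long members (Slfn5, Slfn8, Slfn9) add a helicase-like domain. Type I interferon and bacterial products induce many of them in immune cells, where Slfn2 is known to keep T cells and monocytes quiescent and Slfn4 is known as an inducible gene of myeloid cells.

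Library totals ran from 17561453 to 19219814 counts, and 19971 of the 55291 genes, all 7 members among them, passed the expression filter. Counts were tested with edgeR, and a gene was called at a Benjamini-Hochberg adjusted p under 0.05. Of the genes tested, 683 were called, 544 higher and 139 lower in Tsk, with a median log2 fold change of -0.03 over all genes. That count was 63 without WT replicate 3, 328 without WT replicate 2 and 1381 without WT replicate 1. Marker genes of keratinocytes, fibroblasts, endothelium and skeletal muscle were all well above 0 in the 6 libraries, as in whole skin with the muscle under it. Summed skeletal muscle markers ran from 152000 to 272000 CPM (counts per 1000000 of the TMM-adjusted library size) in WT and from 120000 to 143000 in Tsk. These values are not shares of the reads, since the library size is adjusted, but muscle RNA was a large part of every library. In such bulk tissue, fewer cells of a type and less RNA per cell cannot be told apart.

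In the mm10 genome build the members span chromosome 11 from 82951349 to 83215154, a stretch of 264 kb. From the lower end the order is Slfn5, Slfn9, Slfn8, Slfn2, Slfn1, Slfn4 and Slfn3. Slfn8 and Slfn9 lie on the minus strand and the other 5 on the plus strand. Slfn4 occupies 83175186 to 83190216 and Slfn3 begins close after it, at 83191330. The pseudogene Slfn10-ps sits between Slfn8 and Slfn2. The coding sequences of Slfn3 and Slfn4 were 92.7% identical over their aligned bases, as were those of Slfn8 and Slfn9, while the other pairs ran from 63.2 to 77.0%. Of all 50-base stretches in Slfn4 transcripts, 11.3% also occurred in transcripts of another gene, 6.28% in Slfn3. For Slfn3 this share was 16%, with 7.39% in Slfn4. Slfn8 shared 14.6% and Slfn9 11.9%, mostly with Slfn10-ps, whereas Slfn1 shared 0.606%. Reads from shared stretches could have been split between copies, and every member but Slfn1 had counts that were not whole in all 6 libraries, so the values of the Slfn3 and Slfn4 pair and of the Slfn8 and Slfn9 pair are less certain than that of Slfn1.

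The upstream sequences of the members fell into sets by the motif letters they share, which is why a short stretch of each is shown. RefSeq promoter windows of GRCm38.p6, limited to the 250 bases before each annotated start, were found for all 7 members. An interferon response element, searched as GAAA, any 2 bases and GAAA again on both strands, occurred in Slfn5, Slfn8 and Slfn9, 3 of 7 members. It occurred in 3.46% of the 27025 genes with such windows and in 10 of 21 matched type I interferon-stimulated genes. An interferon gamma activated site, searched as TTCNNNGAA, occurred in 0 of 7 members, against 8.13% of genes. The 9 letters ACTTCCTGG, of the kind bound by ETS factors and picked after the sequences were seen, occurred in Slfn1, Slfn2, Slfn3 and Slfn4, 4 of 7 members. They occurred in 0.829% of genes and 0 of the 21 interferon-stimulated genes. Slfn3 and Slfn4, and Slfn8 and Slfn9, are near-copies in coding sequence, so matches within the family may not be independent. A match of letters is a description of these windows, not a known binding site. In each sequence below, printed 5′ to 3′ on the gene's strand, capitals mark the match and the rest is lower case.
Slfn4, whole window (chr11:83174936-83175185, plus strand): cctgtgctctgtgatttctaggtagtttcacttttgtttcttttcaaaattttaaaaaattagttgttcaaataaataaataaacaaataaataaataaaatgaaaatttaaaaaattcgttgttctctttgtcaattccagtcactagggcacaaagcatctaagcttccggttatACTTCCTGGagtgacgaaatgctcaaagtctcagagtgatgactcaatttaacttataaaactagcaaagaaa
Slfn1 (chr11:83116726-83116774, plus strand): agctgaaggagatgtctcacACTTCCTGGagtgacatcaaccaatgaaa
Slfn2 (chr11:83065037-83065085, plus strand): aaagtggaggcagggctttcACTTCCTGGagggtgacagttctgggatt
Slfn3 (chr11:83191268-83191316, plus strand): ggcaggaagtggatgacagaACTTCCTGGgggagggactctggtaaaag
Slfn5 (chr11:82951927-82951976, plus strand): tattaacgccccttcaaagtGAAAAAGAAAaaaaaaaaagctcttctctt
Slfn8 (chr11:83020829-83020878, minus strand): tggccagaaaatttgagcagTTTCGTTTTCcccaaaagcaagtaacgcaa
Slfn9 (chr11:82991846-82991895, minus strand): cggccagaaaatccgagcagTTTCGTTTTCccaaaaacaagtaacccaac
The ETS-type match lay 73 to 65 bases before the Slfn4 start and 74 to 66 before that of Slfn1, and 55 to 47 and 42 to 34 before those of Slfn2 and Slfn3. The interferon element lay 48 to 39 bases before a Slfn8 start and 45 to 36 before that of Slfn9, read on the opposite strand in both, and 155 to 146 before the Slfn5 start. The Slfn5 window is taken from the RefSeq start, which lies downstream of the first exon in the gene span of the count table, and the printed stretch holds no GENCODE M21 exon of Slfn5.

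Slfn4, the inducible myeloid member, had the widest gap between the groups. Its counts were 675, 172 and 206 in WT replicates 1 to 3 and 24, 13 and 30 in Tsk replicates 4 to 6. Scaled to the TMM-adjusted library size, this was 37.6, 11.1 and 12.8 CPM in WT and 1.24, 0.608 and 1.41 CPM in Tsk. The lowest WT library lay well above the highest Tsk library, and WT replicate 1 stood above the other 2 WT libraries. Mean levels were 20.5 ± 14.8 CPM in WT and 1.09 ± 0.424 in Tsk (SD, n = 3 each), 18.8-fold lower in Tsk, with a log2 fold change of -4.24 ± 0.57 (SE). Without WT replicate 1 the WT mean was 12 CPM and the ratio 11. Slfn4 was the 1 of 7 members called lower, against 0.696% of all genes called lower and 3.42% called in either direction. It was also the 1 member whose groups did not overlap, against 10.6% of all genes separated with Tsk lower and 24.7% in either direction. Both shares are background only, since the member was chosen with this contrast known. With no expression filter it was not called.

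Slfn1, a short member known for restraining the growth of developing T cells, followed with fewer counts. It had 100, 18 and 40 counts in WT and 9, 6 and 33 in Tsk, or 5.56, 1.17 and 2.48 CPM against 0.467, 0.281 and 1.55 CPM. The groups overlapped, because Tsk replicate 6 lay above WT replicate 2. The means were 3.07 ± 2.26 and 0.767 ± 0.687 CPM (SD, n = 3 each), with a log2 fold change of -2.00 ± 0.70 (SE), and the ratio of WT to Tsk fell from 4.01 to 2.38 without WT replicate 1. It was not called by edgeR, and of the alternatives only DESeq2, which called more genes over the whole table, called it lower.

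Slfn2, the quiescence factor of T cells and monocytes, stood at 14.7, 7 and 10.6 CPM in WT and 5.39, 7.39 and 11.8 CPM in Tsk. The groups overlapped widely, and Tsk replicate 6 was above 2 of the WT libraries. The means were 10.8 ± 3.85 and 8.20 ± 3.29 CPM (SD, n = 3 each), with a log2 fold change of -0.39 ± 0.34 (SE). Without WT replicate 1 the ratio of WT to Tsk was 1.07.

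Slfn3, the near-copy of Slfn4 and best known from gut epithelium, was the steadiest member. It stood at 8.40, 9.01 and 8.32 CPM in WT and 8.04, 7.81 and 8.99 CPM in Tsk. All 6 libraries lay close together, and the coefficient of variation was 4.35% in WT and 7.56% in Tsk, against 72.2% and 39.0% for Slfn4. The log2 fold change was -0.05 ± 0.15 (SE), with its sign turned in 3 of 10 other settings, up to 0.23 with library totals alone. The ratio of Slfn4 to Slfn3 within a library was 4.47, 1.24 and 1.54 in WT and 0.155, 0.0778 and 0.157 in Tsk, a comparison that does not depend on the scaling between libraries. So Slfn4 held more counts than its neighbour in every WT library and fewer in every Tsk library, although their exon lengths are similar, at 3964 and 3411 bases.

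**Figure D1:**
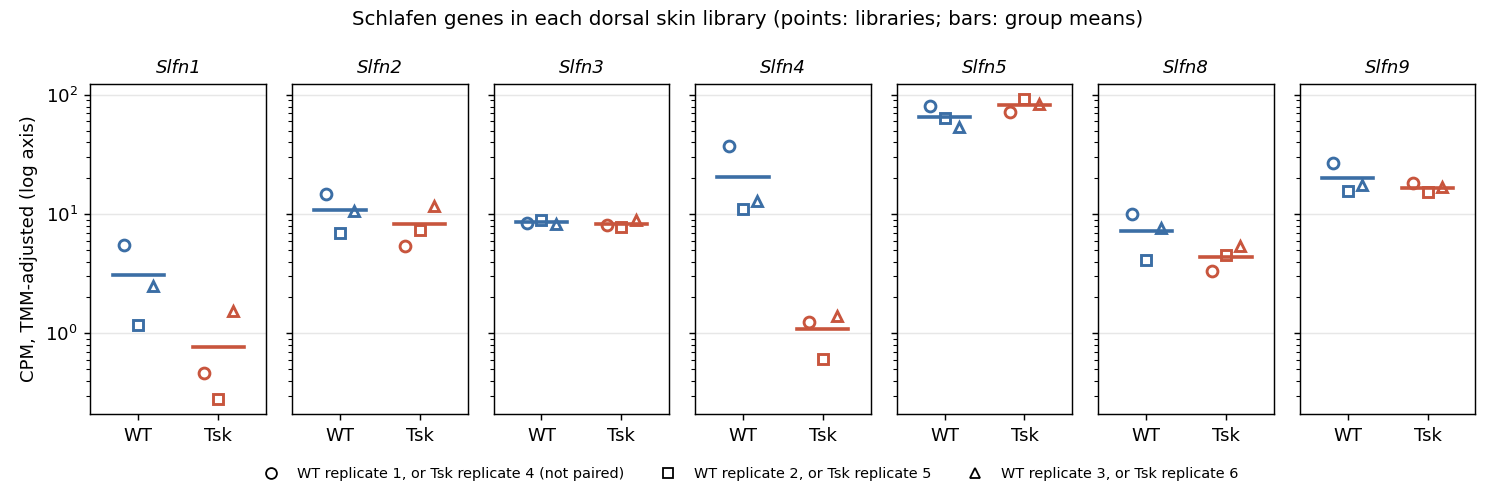
Level of each Schlafen gene in each dorsal skin library, as TMM-adjusted CPM on a log axis, with a point per library and a bar at the group mean. The 3 Slfn4 values lie at 11.1 CPM or above in WT and at 1.41 or below in Tsk, while the groups of the other 6 genes overlap.

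Among the long members, Slfn5, a nuclear protein known to repress interferon-driven transcription, was the 1 gene of the family with a higher mean in Tsk. It stood at 80.9, 63.6 and 53.5 CPM in WT and 71.5, 93.2 and 84.3 CPM in Tsk. WT replicate 1 lay above Tsk replicate 4, so the groups overlapped. The means were 66.0 ± 13.9 and 83.0 ± 10.9 CPM (SD, n = 3 each), with a log2 fold change of 0.33 ± 0.18 (SE). It ran from 0.21 to 0.62 in the 16 alternatives, which are refits of the same 6 libraries. In those with library totals alone and limma-trend on the deposited CPM, the median of all genes also rose, to 0.23 to 0.25. Slfn5 was not called. The antisense gene Slfn5os overlaps Slfn5 and had 0 counts in all 6 libraries. Whether the counting used strand is not given in the sources used here.

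Slfn8 had 180, 64 and 122 counts in WT and 64, 97 and 114 in Tsk, or 7.25 ± 2.95 and 4.41 ± 1.03 CPM (SD, n = 3 each). The groups overlapped at WT replicate 2, and the log2 fold change was -0.72 ± 0.32 (SE). Its near-copy Slfn9 stood at 26.9, 15.7 and 17.7 CPM in WT and 18.1, 15.2 and 16.9 CPM in Tsk, with a log2 fold change of -0.27 ± 0.20 (SE). WT replicate 1 set the WT mean of Slfn9 apart, and without it the ratio of WT to Tsk was 0.998 and the log2 fold change 0.03. The Slfn9 sign also turned in 2 of 10 other settings, both limma-trend on the deposited CPM, so no direction is given for it.

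Beside the members, the table holds 4 more genes whose symbols begin with Slfn. The pseudogene Slfn10-ps stood at 3.56, 1.56 and 2.30 CPM in WT and 1.45, 1.40 and 2.12 in Tsk, at -0.58 ± 0.34 on the log2 scale (SE, edgeR adjusted p = 0.391). Slfn14, a platelet and red cell ribonuclease gene, had 1 count in WT replicate 2, 1 in Tsk replicate 5 and 0 in the rest. The more distant Slfnl1, on chromosome 4, had 1, 2 and 2 counts in WT and 3, 5 and 9 in Tsk. Slfn14, Slfn5os and Slfnl1 were too low to be tested.

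Over the 7 members the median log2 fold change was -0.39, beside -0.03 over all genes tested, and 6 of 7 were below 0, Slfn3 and Slfn9 among them although their sign turned in some settings, beside 52.99% of all genes. WT replicate 1 was the highest WT library for 6 of 7 members, Slfn3 being the exception, whereas it was the highest WT library for 39.5% of all genes tested. Its level over the mean of the other 2 WT libraries was 3.14-fold for Slfn4, 3.05-fold for Slfn1, 1.71-fold for Slfn8, 1.67-fold for Slfn2, 1.61-fold for Slfn9, 1.38-fold for Slfn5 and 0.970-fold for Slfn3. The median of this ratio over all genes was 1.00. In Tsk, replicate 6 was the highest library for 5 of 7 members, and the share over all genes was not taken. In the gene lists read below, this ran from 18 of 19 monocyte and macrophage markers to 0 of 12 keratinocyte and 0 of 12 adipocyte markers. Leaving out WT replicate 1 brought the ratio of WT to Tsk closer to 1 for 5 members, all but Slfn3 and Slfn5.

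**Figure D2:**
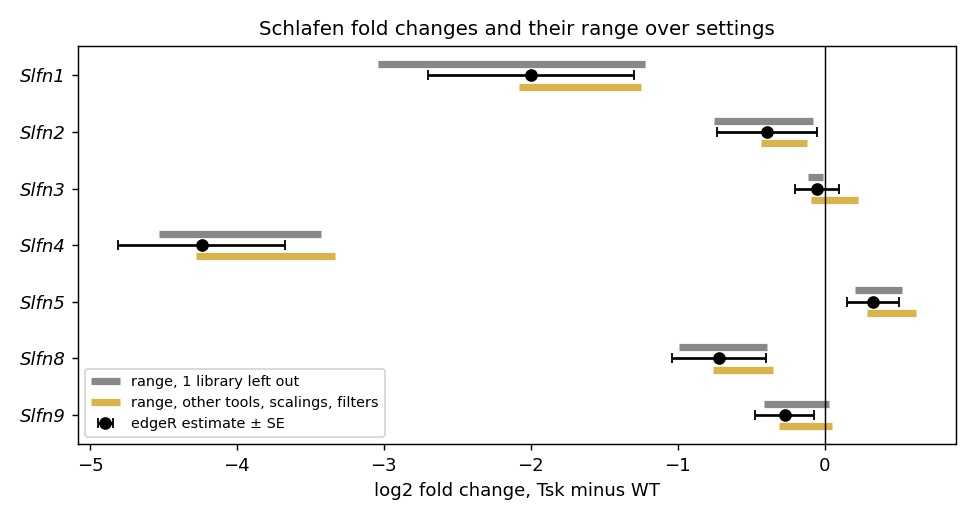
Log2 fold change (Tsk minus WT) of each Schlafen gene, with the edgeR estimate ± SE in black, the range over fits that left out 1 library in grey and the range over other tools, scalings and filters in yellow. Slfn4 ran from -4.53 to -3.33 and Slfn1 from -3.04 to -1.22, while the ranges of Slfn3 and Slfn9 cross 0.

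The make-up of the family differed more between the groups than its sum. Summed over the 7 members, levels were 184.1, 111.7 and 113 CPM in WT and 108, 129 and 130.3 CPM in Tsk, and the groups overlapped. Slfn5 held 44, 56.9 and 47.3% of that sum in WT and 66.2, 72.2 and 64.7% in Tsk. Slfn4 held 20.4, 9.98 and 11.3% in WT and 1.15, 0.471 and 1.08% in Tsk. These shares count reads and are not corrected for gene length.

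Per kilobase of exon, Slfn5 was the most abundant member in both groups, at 10.4 ± 2.19 CPM per kb in WT and 13.1 ± 1.72 in Tsk (SD, n = 3 each). In WT, Slfn2 (6.47 ± 2.32), Slfn4 (5.17 ± 3.74), Slfn9 (3.37 ± 1.00), Slfn3 (2.51 ± 0.111), Slfn8 (1.77 ± 0.719) and Slfn1 (1.65 ± 1.21) followed, all in CPM per kb. The ranges of all neighbours in this WT order overlapped across libraries. Within a library, Slfn5 lay above Slfn2, Slfn4 above Slfn9 and Slfn3 above Slfn8 in 3 of 3 WT libraries, and the other neighbours kept this order in 2 of 3. In Tsk, Slfn2 (4.92 ± 1.97), Slfn9 (2.81 ± 0.244), Slfn3 (2.43 ± 0.183), Slfn8 (1.08 ± 0.251), Slfn1 (0.411 ± 0.368) and Slfn4 (0.274 ± 0.107) followed on the same scale. Slfn4 thus stood at rank 3 in WT and rank 7 in Tsk. In the Tsk order, the ranges of Slfn5 and Slfn2, of Slfn2 and Slfn9 and of Slfn3 and Slfn8 did not overlap, while those of Slfn9 and Slfn3, Slfn8 and Slfn1, and Slfn1 and Slfn4 did. Within a library, Slfn9 still lay above Slfn3 and Slfn8 above Slfn1 in 3 of 3 Tsk libraries, and Slfn1 lay above Slfn4 in 1 of 3.

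**Figure D3:**
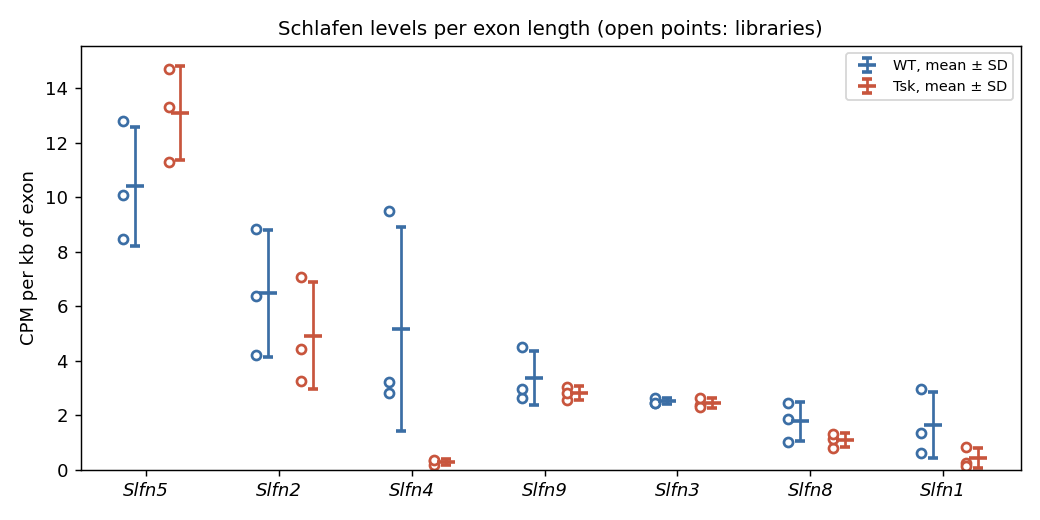
Level of each Schlafen gene in CPM per kb of exon, ordered by the WT mean, with open points for libraries and crossbars for mean ± SD. Slfn5 leads in both groups, at 10.4 in WT and 13.1 in Tsk, and Slfn4 has means of 5.17 in WT and 0.274 in Tsk.

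Genes around the cluster were compared to see whether the difference was shared along the chromosome. Within 500 kb of the outermost members, 20 genes that are no Schlafen gene were tested, with a median log2 fold change of 0.15 and 9 of 20 below 0. Of these, 1 was higher and 0 were lower by edgeR, beside 2.72% and 0.696% of all genes, with 1 higher and 2 lower at an unadjusted p under 0.05, a threshold that 12.1% of all genes tested passed as higher and 7.94% as lower. The gene that rose was Rasl10b, a Ras-like GTPase, at 0.445, 0.130 and 0.621 CPM in WT and 2.18, 3.23 and 2.45 CPM in Tsk, a difference of 2.68 ± 0.43 on the log2 scale (SE, edgeR adjusted p = 0.0171). Its call was lost without WT replicate 3. The nearest tested protein-coding gene on the Slfn5 side was Unc45b, a chaperone of muscle myosin, at -0.79 ± 0.22 (SE, edgeR adjusted p = 0.0876).

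**Figure D4:**
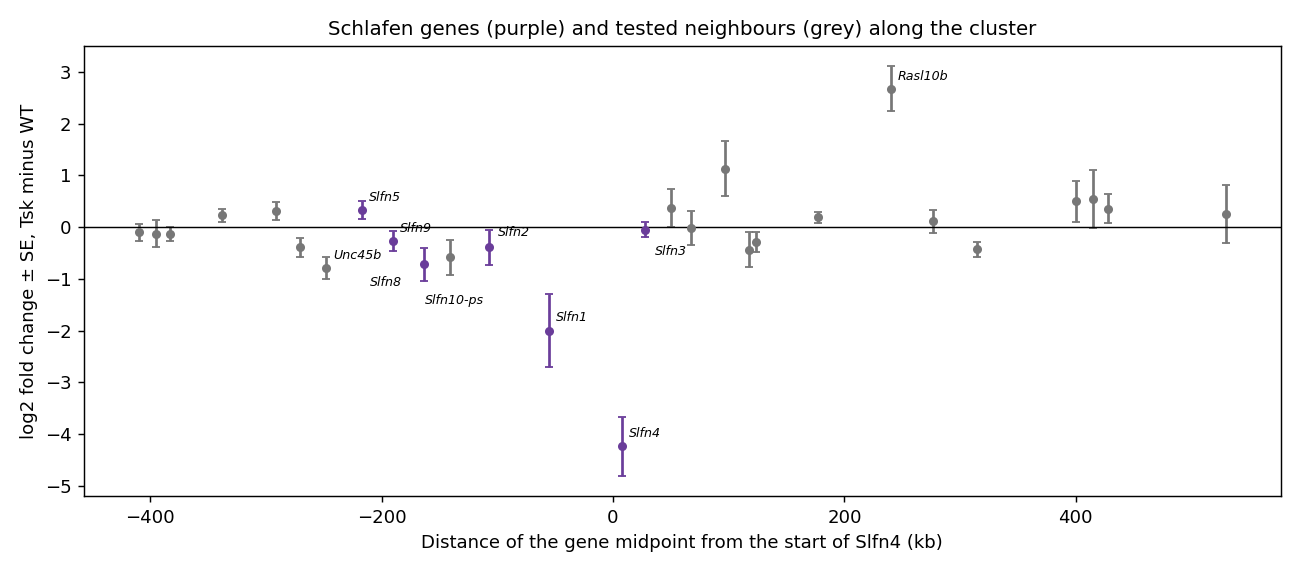
Log2 fold change ± SE (Tsk minus WT) of Schlafen genes (purple) and other tested genes with Slfn10-ps (grey), by distance of the gene midpoint from the start of Slfn4 in kb. Slfn4 at -4.24 and Slfn1 at -2.00 lie below all neighbours, and Rasl10b at 2.68 lies above them.

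Because Schlafen genes respond to interferon, 30 type I interferon-stimulated genes were read in the same fit. None of the 30 was called in either direction by edgeR, and 11 were lower and 0 higher at an unadjusted p under 0.05, beside 7.94% and 12.1% of all genes, while limma-voom called 0 and DESeq2 called 4 lower. Without WT replicate 2 edgeR called 1 lower. Their median log2 fold change was -0.54, beside -0.03 over all genes, 28 of 30 were below 0, and 10 had all Tsk libraries below all WT libraries, beside 10.6% of all genes. The ubiquitin-like modifier Isg15 stood at 7.46, 2.59 and 3.35 CPM in WT and 1.40, 1.22 and 2.12 in Tsk (-1.50 ± 0.42 SE, edgeR adjusted p = 0.0937). The RNA sensor Oas3 stood at 14.2, 4.34 and 9.32 CPM in WT and 3.16, 2.52 and 3.62 in Tsk (-1.59 ± 0.39 SE, edgeR adjusted p = 0.0671). Both were picked after their values were seen. The most abundant members, Parp14 and Ifi27l2a, stood at log2 fold changes of -0.07 ± 0.20 and 0.54 ± 0.53 (SE, edgeR adjusted p = 0.884 and 0.629).

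WT replicate 1 was high for most of these genes too. It was the highest of all 6 libraries for 27 of the 30, beside 18.3% of all genes tested, and the highest WT library for 28 of the 30. The other lists split. WT replicate 1 was the highest WT library for 14 of 17 interferon gamma targets, 14 of 19 monocyte and macrophage markers, 13 of 19 receptor and signalling genes and 10 of 12 keratinocyte markers, beside 39.5% of all genes. It was so for 0 of 12 fibroblast, 0 of 14 skeletal muscle, 1 of 9 mast cell and 1 of 9 platelet and red cell markers. For adipocyte and endothelial markers it was 2 of 12 each, and the remaining lists lay between. Whether the lists share a library pattern with the Schlafen members was not tested. For the 30 genes the summed level was 462, 233 and 292 CPM in WT and 201, 269 and 271 CPM in Tsk. The sums of WT replicate 2 and of Tsk replicates 5 and 6 overlapped. Without WT replicate 1 the median of the 30 was -0.23, beside 0.02 over all genes. The median was -0.32 with library totals alone, where that of all genes was 0.25.

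**Figure D5:**
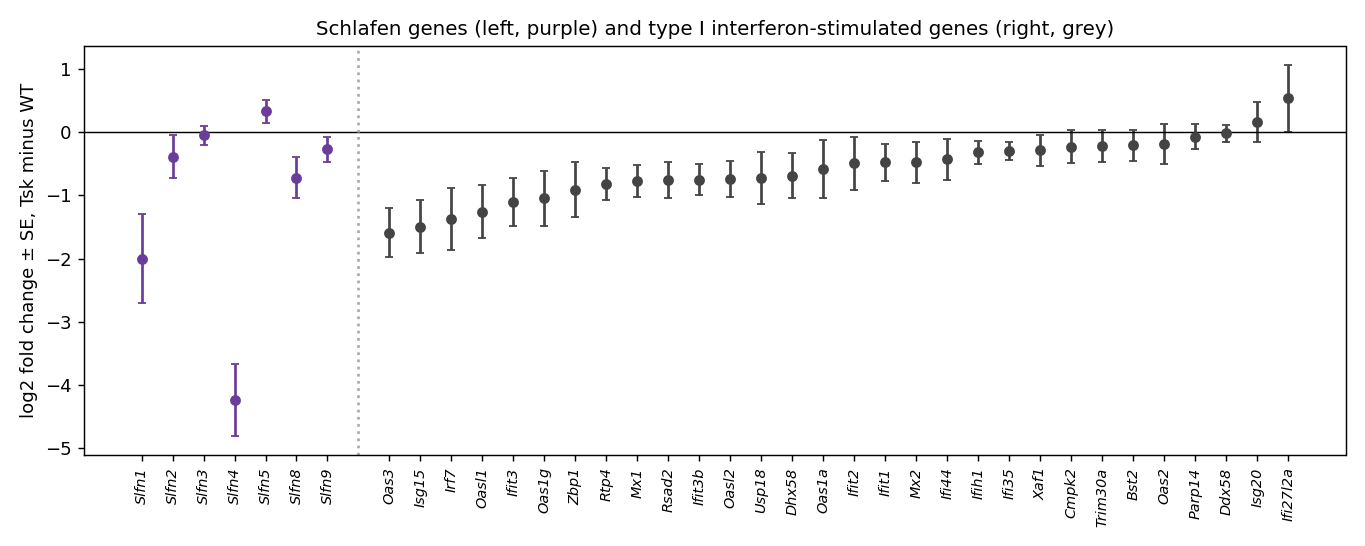
Log2 fold change ± SE (Tsk minus WT) of the 7 Schlafen genes (purple) and of 30 type I interferon-stimulated genes (dark grey, ordered by value). Of the 30, 28 lie below 0 with Oas3 lowest at -1.59, and Slfn4 and Slfn1 lie below all of them.

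Interferon receptors, signalling genes and interferon gamma targets were read in the same way. For these and all lists below, the background of the main edgeR fit is the same. At an unadjusted p under 0.05, 12.1% of all genes tested were higher and 7.94% lower, and edgeR called 2.72% higher and 0.696% lower. These shares do not hold for the other fits. DESeq2 called more genes than edgeR over the whole table. The fits with no filter, over 34809 genes, and with 1 library left out also called other numbers. Their whole-table counts are given at the end, without shares by direction, so list counts from those fits are a description. Of 19 interferon receptor and signalling genes 0 were called by edgeR, with 3 higher and 1 lower at an unadjusted p under 0.05, 1 higher and 1 lower by DESeq2 and 0 by limma-voom, and a median of -0.01. Without WT replicate 1 edgeR called 1 lower. The kinase Jak1 stood at -0.22 ± 0.15 and the receptor chain Ifngr1 at 0.35 ± 0.11 (SE, edgeR adjusted p = 0.447 and 0.130). Of 17 interferon-gamma-induced GTPases and chemokines 0 were called by edgeR, with 2 lower at an unadjusted p under 0.05, 1 lower by DESeq2 and 0 by limma-voom, and a median of 0.02. That median was 0.46 without WT replicate 1 and -0.19 without WT replicate 3, beside 0.02 and -0.01 over all genes. The immunity GTPases Irgm2 and Irgm1 stood at -0.18 ± 0.12 and -0.44 ± 0.18 (SE, edgeR adjusted p = 0.462 and 0.217). Among 13 tested nucleases and helpers that cut transfer RNA or other RNA, the activity several Schlafen proteins share, 0 were called by edgeR. Of these, 2 were higher at an unadjusted p under 0.05, 1 by DESeq2 and 0 by limma-voom, and without WT replicate 1 edgeR called 1 higher. Their median was -0.02, and the exonuclease Xrn1 stood at -0.09 ± 0.11 and the ribonuclease inhibitor Rnh1 at -0.23 ± 0.13 (SE, edgeR adjusted p = 0.697 and 0.368).

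Slfn4 is known to respond to bacterial products, so genes of toll-like receptors and acute inflammation were also read. Of 22 such genes 14 passed the filter and 0 were called by edgeR, with 1 higher and 1 lower at an unadjusted p under 0.05, 1 each way by DESeq2 and 0 by limma-voom, and a median of 0.06 over those 14. Nfkb1 and its inhibitor Nfkbia stood at 0.02 ± 0.12 and 0.10 ± 0.16 (SE, edgeR adjusted p = 0.962 and 0.780). The 8 genes below the filter had few counts, and with no filter the list had 3 lower and 1 higher of 22 and a median of -0.47, beside -0.02 over all genes. The inflammatory cytokine Il1b had 21, 41 and 9 counts in WT and 0, 1 and 1 in Tsk (edgeR with no filter, adjusted p = 0.000860). The itaconate enzyme gene Acod1 of activated macrophages had 14, 14 and 1 counts in WT and 1, 0 and 0 in Tsk (edgeR with no filter, adjusted p = 0.0222). Both genes were picked after their values were seen. The level of Il1b was highest in WT replicate 2 and that of Slfn4 in WT replicate 1, while Acod1 had 14 counts in each of these 2 libraries.

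Markers of the cells known to express Schlafen genes were set beside these values. Of 18 neutrophil markers 6 passed the filter and 0 were called by edgeR, with 1 lower at an unadjusted p under 0.05, 1 lower by DESeq2 and 0 by limma-voom. With 1 library left out, 1 was called lower in every fit but that without WT replicate 3. With no filter edgeR called 3 lower and 0 higher of 17, with a median of -0.39, beside -0.11 over the 6 that passed. The summed level of the list was 23.3 to 33.6 CPM in WT and 23.4 to 29.4 CPM in Tsk, and the surface marker Ly6g had 0 counts in all 6 libraries. The calprotectin gene S100a8, below the filter, had 14, 10 and 17 counts in WT and 0, 1 and 1 in Tsk (edgeR with no filter, adjusted p = 0.00134). Clec4d, also below it, had 13, 10 and 18 counts in WT and 2, 2 and 7 in Tsk (edgeR with no filter, adjusted p = 0.0385). S100a9, which passed the filter, stood at -2.21 ± 0.57 (log2 fold change ± SE, edgeR adjusted p = 0.0722). All of these were picked after their values were seen. Of the 6 tested, 3 were below 0 and 3 above. Ngp, Camp, Ltf and Elane, with few counts, were above 0 with no filter. The 2 most abundant tested markers, Il1r2 and Mmp9, which weigh most in the summed level, stood at 0.06 ± 0.29 and 0.23 ± 0.35 (log2 fold change ± SE, edgeR adjusted p = 0.939 and 0.772).

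Monocyte and macrophage markers split. Of 20, 19 were tested and 0 called by edgeR, with 9 higher and 2 lower at an unadjusted p under 0.05, beside 12.1% and 7.94% of all genes. DESeq2 called 4 higher and 1 lower, and limma-voom called 0. The median of the markers was 0.46, or -0.01 without Tsk replicate 6. Without Tsk replicate 4, 2 were called higher by edgeR. Their summed level was 523, 373 and 503 CPM in WT and 531, 662 and 1310 CPM in Tsk. The lysozyme gene Lyz2 and the mannose receptor Mrc1, the most abundant, stood at 0.84 ± 0.34 and 1.16 ± 0.35 (log2 fold change ± SE, edgeR adjusted p = 0.219 and 0.115). Ms4a4c, a monocyte gene that is itself interferon-responsive, went the other way, at 7.68, 1.49 and 2.80 CPM in WT and 0.518, 0.327 and 1.13 CPM in Tsk (-2.59 ± 0.67 SE, edgeR adjusted p = 0.0754), and was picked after its values were seen. All 3 WT libraries lay above all 3 Tsk libraries for Ms4a4c, as for Slfn4. Of the 19 markers 2 were separated this way, Ms4a4c and Cx3cr1, and 4 with Tsk higher, beside 10.6% and 14.1% of all genes. Below the filter, Chil3 had 13, 5 and 13 counts in WT and 0, 1 and 2 in Tsk (edgeR with no filter, adjusted p = 0.015). Chil3 and Cx3cr1 were also picked after their values were seen. With no filter 1 of 20 was called lower and 0 higher, with a median of 0.34. The summed macrophage level, by contrast, was highest in Tsk. The part of any cell type in the Schlafen values was not tested.

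T cell markers, of interest for Slfn1 and Slfn2, gave 0 calls among 14 tested of 20 by edgeR, DESeq2 and limma-voom, with 1 higher and 1 lower at an unadjusted p under 0.05, and a median of 0.18. Cd3d stood at -0.17 ± 0.24 and Gata3, also made by keratinocytes, at -0.04 ± 0.18 (log2 fold change ± SE, edgeR adjusted p = 0.749 and 0.929). B cell and dendritic cell markers gave 0 calls among 10 tested by the same 3 tools, and 0 at an unadjusted p under 0.05, with a median of 0.20, Epcam at 0.28 ± 0.22 and Ighm at -0.20 ± 0.20 (SE, edgeR adjusted p = 0.540 and 0.638). Epcam ran from 16.1 to 33.3 CPM over the libraries, beside 2.53 to 5.55 for Cd207 of the same list, and which cells held its RNA was not tested. Mast cell markers gave 0 calls among 9 tested by edgeR and limma-voom, 2 higher by DESeq2 and 6 higher at an unadjusted p under 0.05, and without Tsk replicate 4 edgeR called 2 higher. Their median was 1.01, with Kit at 1.01 ± 0.27 and Gata2 at 0.49 ± 0.36 (SE, edgeR adjusted p = 0.0773 and 0.505). Platelet and red cell markers, set beside Slfn14, gave 0 calls among 9 tested by edgeR and limma-voom, 1 higher by DESeq2, and 1 higher and 1 lower at an unadjusted p under 0.05. Their median was 0.58, or 1.39 without WT replicate 2 and 0.17 without Tsk replicate 5, and without WT replicate 1 edgeR called 1 lower. With all 6 libraries the globin genes Hba-a2 and Hbb-bs stood at 1.04 ± 0.49 and 0.81 ± 0.65 (SE, edgeR adjusted p = 0.287 and 0.545).

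Markers of the resident tissues of the skin were read as well. Fibroblast markers had 4 of 12 higher and 0 lower, with a median of 1.07, among them Mfap5 (2.61 ± 0.22), Pi16 (3.14 ± 0.43), Dpt (1.22 ± 0.22) and Thy1 (0.72 ± 0.15, log2 fold change ± SE, edgeR adjusted p = 0.00278, 0.0134, 0.0222 and 0.0410). Endothelial markers had 4 of 12 higher, with a median of 0.78, led by Plvap at 1.16 ± 0.15 and Vwf at 0.99 ± 0.16 (SE, edgeR adjusted p = 0.0105 and 0.0169), beside Tek and Lyve1. Lyve1 stood at 22.2, 31.5 and 80.9 CPM in Tsk, highest in replicate 6 like the macrophage marker Mrc1. Prox1, of the same list as Lyve1, stood at 0.12 ± 0.31 (SE, edgeR adjusted p = 0.870). Which cells held the Lyve1 RNA was not tested. Without WT replicate 3 the fibroblast count was 1 and the endothelial count 0. Adipocyte markers had 2 of 12 higher, Lep and Cfd at 3.50 ± 0.69 and 2.56 ± 0.54 (SE, edgeR adjusted p = 0.0415 and 0.0444), with a median of 2.45. That count was 0 without any 1 of the WT libraries and 6 without Tsk replicate 5 or 6, and the median was 1.09 without Tsk replicate 5. Summed adipocyte markers stood at 656, 1130 and 863 CPM in WT and 1450, 4850 and 1050 CPM in Tsk, so Tsk replicate 5 stood apart. Keratinocyte markers had 2 of 12 higher, the cornified envelope genes Lor and Tgm1 at 1.78 ± 0.22 and 1.13 ± 0.21 (SE, edgeR adjusted p = 0.00792 and 0.0285), while their median was -0.25. Without WT replicate 3 that count was 0. Over all the lists 12 genes were called, 2 without WT replicate 3 and 23 without WT replicate 1. Of 14 skeletal muscle markers 0 were called by edgeR and limma-voom, 1 higher and 10 lower by DESeq2, and 1 higher and 9 lower at an unadjusted p under 0.05, with a median of -0.76. Without WT replicate 1 edgeR called 1 higher and 9 lower, and with no filter 1 higher and 4 lower. Myh4 and Ttn stood at -1.09 ± 0.36 and -0.74 ± 0.41 (SE, edgeR adjusted p = 0.136 and 0.354). WT replicate 1, the highest WT library for most Schlafen genes, had the lowest summed muscle level of the WT libraries, at 152000 CPM beside 272000 and 239000. The part of these tissues in the Schlafen values was not tested.

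The genes most like each member across the 6 libraries were ranked by Pearson's r of log2 CPM over 14994 genes. Slfn4 was followed most closely by Exoc7, a subunit of the exocyst, and Gm50172 (r = 0.997 each) and by Spp1, the secreted matrix protein osteopontin (r = 0.995). Exoc7 stood at 82.6, 72.6 and 73.1 CPM in WT and 50.1, 45.5 and 52.0 in Tsk, and Spp1 at 8.57, 5.38 and 6.58 CPM in WT and 2.13, 1.73 and 2.31 in Tsk. Slfn2 was followed by the toll-like receptor gene Tlr13 (0.995), Armc2 (0.993) and Zfp995 (0.992), and Slfn1 by Igsf11 (0.996), Gm44737 (0.992) and Iqsec3 (0.989). Tlr13, a sensor of bacterial RNA, stood at 6.96, 2.33 and 4.47 CPM in WT and 1.66, 2.76 and 5.88 in Tsk, the same order of libraries as Slfn2. For Slfn5 the closest were Peli2 (0.991), a ubiquitin ligase of toll-like receptor signalling, N4bp2l1 (0.984) and A630072M18Rik (0.983). For Slfn8 they were Gm38218 (0.988), Gm48632 (0.986) and Mbip (0.984), for Slfn9 Moxd1 (0.990), Gpr37 (0.989) and Dck (0.987), and for Slfn3 1700015I17Rik (0.994), Olfr853 (0.991) and A430110L20Rik (0.991). With 6 libraries and that many genes some high values arise in any case, so these are a description without a p-value, and all values share the same libraries and scaling.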

How the data were processed

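Ribosome-depleted total RNA of dorsal skin was sequenced from 3 WT and 3 Tsk samples with a stranded dUTP kit, per the labels. The submitters' processing notes name mm10 and the tools STAR, Partek 7.0 and bcl2fastq 2.19.1.403. How reads were assigned to genes, and with which annotation or strand option, is not given in the sources used here. Estimated counts, deposited by the authors, were rounded to whole numbers for testing, since 34.79 to 37.31% of values per library were not whole. The authors also deposited CPM values, used in 1 kind of alternative, and a TMM-normalised signal and TPM values, not used here.

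Groups came from the sample titles. The rounded counts went into edgeR 4.0.16 under R 4.3.3 (quasi-likelihood F-test, robust, TMM factors from 0.8227 to 1.129, filterByExpr with minimum count 10 and minimum total 15), adjusted over all 19971 genes tested. CPM in the text is scaled to the TMM-adjusted library size, levels are mean ± SD and fold changes ± SE. All 3 pairs within each group differed by more than sampling noise (chi-square per degree of freedom of 8.6 or more), and no molecular identifiers separate molecules from PCR copies. Exon lengths are unions of GENCODE M21 exons, and upstream sequences come from RefSeq (GRCm38.p6). Coding sequences were aligned with Biopython 1.88. The edgeR step was tested on simulated data.

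The members and the 16 gene lists (266 symbols, all matched to a row) were chosen with earlier results of these data known. Named genes were all genes with symbols starting with Slfn, up to 4 called members of each list or its 2 most abundant, called or nearest neighbours within 500 kb, and the 3 genes most like each member with mean log2 CPM no lower than 1. A gene that this rule takes is not reported here. Others are said to be picked after their values were seen. The 16 alternatives were other scalings, filters and rounding, DESeq2 1.42.0, limma 3.58.1 (voom, and trend on log2 of the deposited CPM plus 0.5 or 0.1) and leaving out each library.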

Additional observations from a re-analysis of the deposited data

How the results depend on the processing

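Of the 683 genes called over the whole table, 63 (without WT replicate 3) to 1381 (without WT replicate 1) were called with 1 library left out. The count was 1791 with library totals alone (1695 higher, 96 lower, the median of all genes moving from -0.03 to 0.25), 1157 with no filter, 1592 with DESeq2, and 1916 and 1887 with limma-trend on the deposited CPM plus 0.5 and 0.1. Of the members, 1 was called in each fit with 1 library left out, 0 with no filter and 2 with DESeq2, Slfn4 and Slfn1. These member counts are a description, beside 1157 genes called with no filter and 1592 with DESeq2 over the whole table. The gene lists, with 12 called, gave 2 to 23 with 1 library left out, 36 with library totals alone, 27 with no filter, 54 with DESeq2 and 36 with both limma-trend settings. The neighbours, with 1 called, gave 0 to 2 with 1 library left out, 2 with no filter and 2 with DESeq2. The cause of these shifts was not tested. Member fold changes moved by less than the spread between libraries in 103 refits and by more in 9, which belong to Slfn3 (3), Slfn5 (3), Slfn9 (2) and Slfn4 (1). Counts per list stayed within 1.5 times in 182 refits and moved in 74. No paired analysis was possible because the groups share no replicate number. Depth limits Slfn1 and Slfn4 in Tsk, where single libraries held 6 to 33 counts, and genes below the filter could not be compared at this depth except with no filter.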
